A study of Mus musculus with 28 samples.

Results

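The ribosome-bound mRNAs of the mouse retina at postnatal day 7.5 (P7.5) were compared with those of the adult retina. The comparison used 4 of the 28 libraries of the series, 2 from P7.5 retina and 2 from adult retina, all labelled as strain C57BL/6, the adult without an age. In all of them the RiboTag knock-in had been crossed with Pax6-alpha-Cre, so that recombined cells carry the ribosomal protein RPL22 with a hemagglutinin (HA) tag, and ribosomes with their mRNAs were pulled down with an HA antibody. The study calls the retina Cre-positive, which the labels of these libraries do not state. Members are the 3367 genes, of 23995 listed, that reached at least 1 FPKM, a level scaled for transcript length and library size, in 2 or more of the 4 libraries. For each member the change is the mean of log2(FPKM + 1) in the adult minus that at P7.5, and a gene was counted as higher or lower where both adult libraries lay above or below both P7.5 libraries. By that rule 179 genes were higher in the adult, 77 were lower, and the other 3111 overlapped between the stages. Throughout, values are given for replicate 1 and then replicate 2 of a stage.

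Pax6-alpha-Cre is active for a short time in progenitors of the peripheral retina, and their progeny of every retinal cell class keep the tagged allele, so the pull-down is not from one cell type. Material of 3 eyes was homogenised for a sample according to the methods, so each library pools eyes. Cre-negative retina was not analysed here, so RNA bound without the tag has no measured background in the retina. A further adult retina library, from the ribosome run-off experiment but made without run-off, held 4686284 reads on genes. Nothing in the labels says whether replicates came from separate litters, so the spread between them may be partly technical.

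In the mouse, the retina at P7.5 is still maturing. Rods, born last among the neurons together with bipolar cells and Müller glia, then build outer segments, the stacks of membrane in which light is absorbed and the signal is passed through transducin and phosphodiesterase to the cyclic GMP-gated channel. In the same weeks synapses form, retinal waves give way to vision when the eyes open, and ganglion cell axons finish the refinement of their arbors in the superior colliculus (SC). The adult retina is known for its very high aerobic glycolysis, most of it in photoreceptors.

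The 4 libraries differed from one another in ways that did not follow the stages. Between 2082 (adult replicate 1) and 8119 (P7.5 replicate 2) genes were above 0 FPKM. The spacing of low values in single-transcript genes gave all 4 libraries a similar estimated depth, at which 3 fragments on a 2 kb transcript would be 0.154 to 0.208 FPKM. Pearson's r of log2(FPKM + 1) over the members was 0.71 between the P7.5 replicates and 0.62 between the adult replicates. It was 0.92 between P7.5 replicate 2 and adult replicate 2. Another pair from different stages, E17.5 replicate 1 and P0.5 replicate 2 of the retina, gave 0.94. Some genes used by every cell were listed at 0. Cytoplasmic beta-actin (Actb) was listed at 0 and 38178 FPKM at P7.5 and 33277 and 47561 FPKM in the adult, and Gnb1, the beta subunit of rod transducin, was listed at 0 in all 4 libraries although the adult library without run-off held 1427132 reads on it. A listed 0 is therefore not read here as absence, and library values are given in place of a mean and SD.

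The library labelled P7.5 replicate 2 shared its content with both adult libraries. All 103 genes at 5 FPKM or more in adult replicate 1 and under 1 FPKM in the 6 retina libraries of the 4 stages other than these 2 reached 1 FPKM in P7.5 replicate 2. There they stood at a median of 0.353 times the adult value, with a log2 ratio of -1.50 ± 0.34 (SD, n = 103 genes). All 81 genes at 0 in adult replicate 1 and at 20 FPKM or more in P7.5 replicate 2 reached 1 FPKM in adult replicate 2. Their log2 ratio of P7.5 to adult was -0.23 ± 0.32 (SD, n = 81 genes). Whatever their value in adult replicate 1, 599 of 601 genes at that level in P7.5 replicate 2 reached 1 FPKM in adult replicate 2. Of 731 genes at 5 FPKM or more in P7.5 replicate 1, 128 were under 1 FPKM in both adult libraries. The same held for 59 of 893 and 201 of 1815 in E17.5 retina and 12 of 816 and 35 of 805 in P0.5 retina. For P7.5 replicate 2 it was 0 of 1425 genes. The rod gene Guca1b shows the pattern, with 0, 69.3, 215 and 4.67 FPKM in P7.5 replicates 1 and 2 and adult replicates 1 and 2, and so does the rod transcription factor gene Nr2e3, with 0.21, 48.5, 0 and 49.5 FPKM in the same order. Weights of 0.35 for adult replicate 1 and 0.55 for adult replicate 2 were chosen to bring their sum closest to P7.5 replicate 2. On the same 1891 genes this fitted sum gave r = 0.94 with P7.5 replicate 2 on the log scale. Adult replicate 2 alone gave r = 0.92 over the members. Whether adult material entered that library was not tested, and results are therefore given with and without it.

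**Figure D1:**
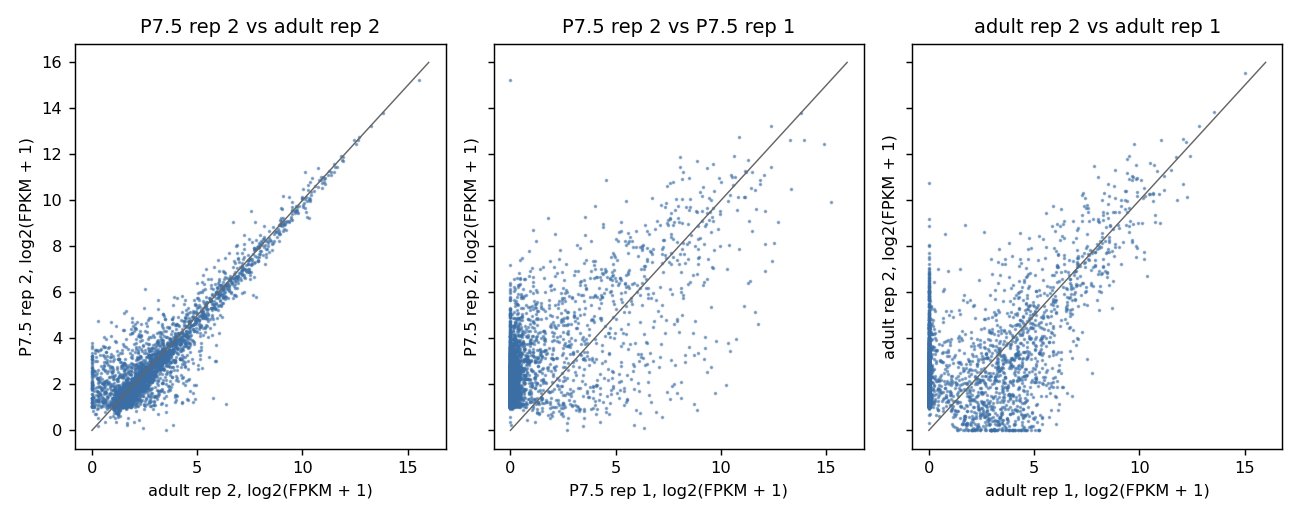
Each point is 1 of the 3367 genes, and both axes are log2(FPKM + 1) with the diagonal drawn. P7.5 replicate 2 lies along the diagonal with adult replicate 2 (r = 0.92), whereas the P7.5 replicates (r = 0.71) and the adult replicates (r = 0.62) scatter and have many genes at 0 in 1 library.

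The library labelled P7.5 replicate 1 in turn resembled 2 perinatal retina libraries, E17.5 replicate 1 and P0.5 replicate 2 (r = 0.82 with each). Its highest r with any library was 0.86, with replicate 1 of the Cre-positive SC at P7.5, so the resemblance was not to perinatal retina alone. Its difference from P7.5 replicate 2 went with that of E17.5 replicate 1 from E17.5 replicate 2 (r = 0.51 over 3367 genes) and with that of P0.5 replicate 2 from P0.5 replicate 1 (r = 0.39). Actb was listed at 0 in these 3 retina libraries and at 15371 FPKM or more in the other 5 retina libraries. Other abundant genes did not go together in the 3 libraries. Set and Tubb5 were listed at 0 in E17.5 replicate 1 and P0.5 replicate 2. In P7.5 replicate 1 Set was at 14102 FPKM and Tubb5 at 10026 FPKM. Gnb1 was at 16210.4 FPKM in E17.5 replicate 1 and at 0 in P0.5 replicate 2 and P7.5 replicate 1. As a description over genes, which are not independent, these values only say that some transcripts, but not all, were listed high or at 0 together in the 3 libraries.

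Across all members the stages could not be separated by the model. With limma on log2(FPKM + 1), fitted over the 8 retina libraries of the 4 stages, 0 genes rose (0% of 3367) and 0 fell at a Benjamini-Hochberg adjusted p under 0.05. At an unadjusted p under 0.05 there were 10 higher genes (0.297%) and 29 lower genes (0.861%). A design of 2 against 2 cannot give a two-sided exact permutation p under 0.333 for a single gene. The 179 genes higher in all 4 pairs of libraries were 5.32% of those tested and the 77 lower genes 2.29%. The median change of all members was 0.12 on the log2 scale. Against P7.5 replicate 1 alone, both adult libraries were higher for 1067 genes (31.7%) and lower for 304 (9.03%), and the median change of all members was 1.0. Against P7.5 replicate 2 alone it was -0.54, so the direction of the typical gene depended on which P7.5 library stood for the stage. Scaling mattered as well. Under upper-quartile scaling, which divides adult replicate 1 by 6.17, 89 of 176 higher genes changed sign and no gene stayed higher in all 4 pairs, and under median-ratio scaling 20 of 176 changed sign. For a gene well above 0 in all 4 libraries both scalings move adult minus P7.5 downward, so they put no check on the sign of such lower genes. Median-ratio scaling divides P7.5 replicate 2 by 1.62 and adult replicate 2 by 1.37. A gene listed at 0 in replicate 1 of both stages can therefore move upward under it.

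Rod phototransduction and outer segment genes and those of glycolysis had the highest median changes of the 34 lists with 5 or more genes tested, both 1.36 against 0.12 for all members. Of 45 genes on the rod list 27 passed the filter, and 23 of these overlapped. In both adult libraries 4 were higher (14.8% against 5.32% of all members) and 0 were lower (against 2.29%). Relative to all members the list's median was 1.25 higher as deposited, 1.61 higher under median-ratio scaling and 0.57 higher under upper-quartile scaling. Without P7.5 replicate 2 the list's median was 3.09 against 1.0 for all members, and 21 of the 27 genes were higher in both adult libraries than in P7.5 replicate 1 (77.8% against 31.7%). Without P7.5 replicate 1 the median turned negative, -0.14 against -0.54. In bulk libraries fewer rods and less mRNA on ribosomes per rod cannot be told apart.

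The rod genes were listed at or near 0 in 1 P7.5 library, the one that also lists Actb at 0, and at high levels in the other. Over the 27 genes the median was 0.093 FPKM in P7.5 replicate 1, where 2 genes reached 1 FPKM, and 21.5 FPKM in P7.5 replicate 2, where all 27 did. In the adult libraries the medians were 20.9 and 19.9 FPKM, with 19 and 25 genes at 1 FPKM or more. In E17.5 and P0.5 retina the median lay between 0 and 0.105 FPKM, so the perinatal libraries resembled P7.5 replicate 1 in this respect. All 27 genes had reads in the adult library without run-off, with a median of 801 reads, and 26 of them were above the middle of the members in reads per kilobase there.

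Guca1a, which encodes the calcium sensor that switches rod and cone guanylate cyclase on, had the largest gap of all higher genes. It lies at chr17:47394558-47400584 (ENSMUSG00000023982) in GRCm38, with 0 and 54 FPKM at P7.5 and 215 and 224 FPKM in the adult. The adult libraries were close to each other and both far above P7.5, a change of 4.90 ± 1.84 (SE) that fell short of the threshold (limma, unadjusted p = 0.0078, Benjamini-Hochberg adjusted p = 1.0). Before that, it had 0 and 0.319 FPKM at E17.5 and 0 and 0.128 FPKM at P0.5. Rom1, a disc rim protein of the outer segment (chr19:8927391-8929356, ENSMUSG00000071648), was at 0.377 and 94.8 FPKM at P7.5 and 129 and 179 FPKM in the adult. Pde6g, the inhibitory subunit of the rod phosphodiesterase (chr11:120447605-120453500, ENSMUSG00000025386), was at 0.35 and 171 FPKM at P7.5 and 308 and 173 FPKM in the adult, and the lower adult value exceeded P7.5 replicate 2 by only 0.02 on the log2 scale. Gnb5, the G-protein beta subunit that works with RGS9 to end the light response (chr9:75306288-75345876, ENSMUSG00000032192), was at 0 and 15.9 FPKM at P7.5 and 19 and 22.1 FPKM in the adult. For Rom1 and Gnb5 too, P7.5 replicate 2 stood far closer to the adult libraries than to its own replicate. These 4 genes kept a positive change under both scalings.

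Promoters of rod genes that were higher in both adult libraries are shown because a short homeobox core, TAATCC, was frequent on the rod list. It is the sequence bound by the photoreceptor factor CRX and its relative OTX2. It was searched on both strands, as TAATCC or GGATTA, in the RefSeq promoter windows of build GRCm38.p6, which run from 250 bases before a gene's start to 50 after it. Of the 32851 windows, 7.06% held it. Of the 34 rod list genes with a window 14 held it (41.2%), and of the 21 that were also members 11 did (52.4%), against 8.14% of all 27025 genes with a window. These counts cover the rod list whatever the change of its genes. Among all genes higher in the adult 15 of 137 held it (10.9%), and among the lower genes 4 of 66 (6.06%), against 199 of 2625 members with a window (7.58%). The motif was picked after these results were known, and the shares are a description. Capitals mark the core, in windows at chr17:47400557-47400856 (minus strand), chr9:75306038-75306337 (plus strand) and chr19:8929307-8929606 (minus strand). The core begins 57 bases before the start in Guca1a and 6 bases before it in Gnb5, and these letters are not in the window of Rom1. Pde6g had no entry.
Guca1a: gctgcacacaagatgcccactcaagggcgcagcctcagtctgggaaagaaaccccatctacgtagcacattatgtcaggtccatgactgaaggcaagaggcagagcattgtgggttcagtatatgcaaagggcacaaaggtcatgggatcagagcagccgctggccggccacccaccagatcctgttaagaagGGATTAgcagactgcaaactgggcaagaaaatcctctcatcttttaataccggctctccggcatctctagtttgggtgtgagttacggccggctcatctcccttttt
Gnb5: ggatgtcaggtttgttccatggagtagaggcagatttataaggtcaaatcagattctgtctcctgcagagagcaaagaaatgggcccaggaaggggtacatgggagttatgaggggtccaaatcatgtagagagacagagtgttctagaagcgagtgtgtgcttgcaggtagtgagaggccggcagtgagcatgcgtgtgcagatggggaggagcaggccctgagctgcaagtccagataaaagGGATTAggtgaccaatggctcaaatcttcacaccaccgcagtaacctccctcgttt
Rom1: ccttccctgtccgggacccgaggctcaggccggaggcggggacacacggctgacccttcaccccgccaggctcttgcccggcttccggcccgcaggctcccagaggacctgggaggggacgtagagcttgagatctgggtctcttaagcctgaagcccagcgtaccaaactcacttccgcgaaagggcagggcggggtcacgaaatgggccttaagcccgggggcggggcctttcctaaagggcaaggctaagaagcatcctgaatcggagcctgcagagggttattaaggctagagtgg

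Further rod genes are named here after their values were seen, as defining markers of the cell. Gnat1, the alpha subunit of rod transducin, was at 0.126 and 93.6 FPKM at P7.5 and 257 and 50.2 FPKM in the adult. P7.5 replicate 2 lay between the adult libraries, and P7.5 replicate 1 was under 1 FPKM. Rod arrestin (Sag), which ends the response of the photopigment, was at 0.413 and 60.3 FPKM at P7.5 and 59 and 51.2 FPKM in the adult, with P7.5 replicate 2 above both adult libraries. Cngb1, a subunit of the cyclic GMP-gated channel, was at 0 and 21.5 FPKM at P7.5 and 39.3 and 10.7 FPKM in the adult, and the outer segment protein gene Prph2 was at 0.208 and 28.4 FPKM at P7.5 and 71.2 and 6.09 FPKM in the adult. The adult replicates themselves disagreed on the transcription factors of the photoreceptor lineage. Crx was at 0.0945 and 12.6 FPKM at P7.5 and 0.035 and 20.3 FPKM in the adult, and Nrl, the factor that sets rod over cone fate, was at 0.754 and 9.35 FPKM at P7.5 and 1.12 and 7.49 FPKM in the adult. For Crx adult replicate 1 was lower than P7.5 replicate 1, and neither gene separated the stages. In the adult library without run-off there were 17334 reads on Gnat1, 749 on Crx and 527 on Nrl.

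**Figure D2:**
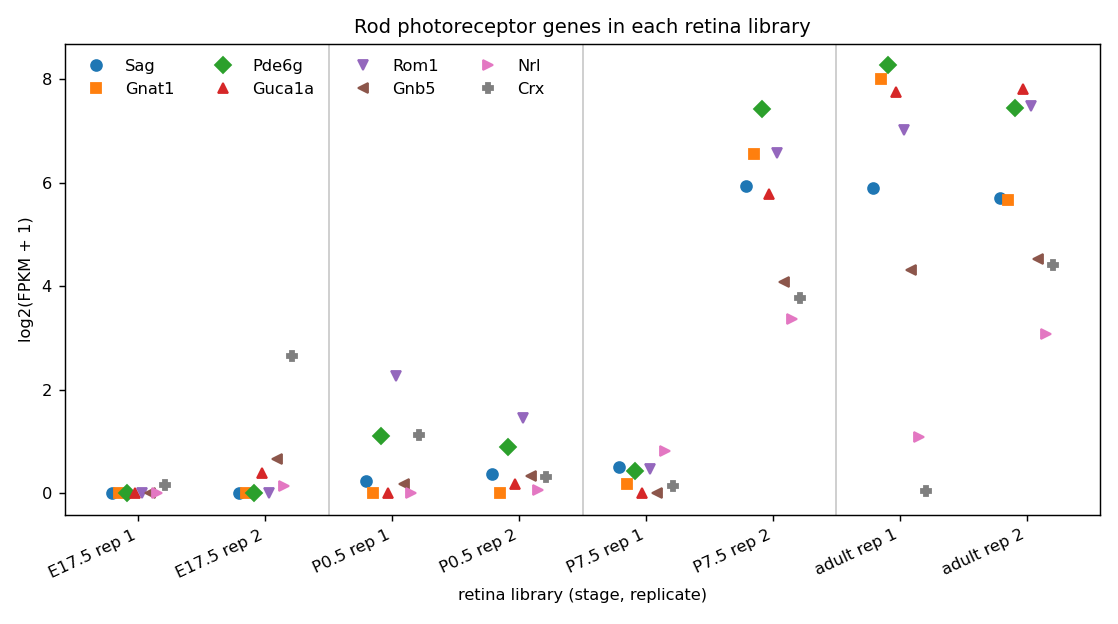
The y axis gives log2(FPKM + 1) and the x axis the 8 retina libraries, with 1 symbol for each of 8 rod photoreceptor genes. The genes lie low in E17.5, P0.5 and P7.5 replicate 1 and high in P7.5 replicate 2 and the adult, except that Crx and Nrl are low in adult replicate 1.

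Genes of glycolysis were the other list whose median stood apart. Of 22 genes 13 passed the filter, 1 was higher in both adult libraries (7.69% against 5.32% of all members), 0 were lower and 12 overlapped. Compared with P7.5 replicate 1 alone, 11 of the 13 were higher in both adult libraries (84.6% against 31.7% of all members), and the median change was 2.46 against 1.0. Without P7.5 replicate 1 the median was -0.04 against -0.54, so the direction of the list depended on that library. Gpi1, glucose-6-phosphate isomerase, was the gene without overlap, at 0.0943 and 3.37 FPKM at P7.5 and 3.53 and 5.14 FPKM in the adult. Hk2, the hexokinase found in photoreceptors, was at 1.3 and 297 FPKM at P7.5 and 922 and 261 FPKM in the adult, and its change of 4.23 ± 1.64 (SE) was among the 10 smallest p-values (limma, unadjusted p = 0.0097, Benjamini-Hochberg adjusted p = 1.0). Pkm, which encodes pyruvate kinase, was at 0.17 and 69.4 FPKM at P7.5 and 122 and 52.1 FPKM in the adult. Aldolase A (Aldoa) was at 0.694 and 42.4 FPKM at P7.5 and 31.1 and 40.9 FPKM in the adult and lactate dehydrogenase A (Ldha) at 0.671 and 59 FPKM at P7.5 and 7.01 and 109.8 FPKM in the adult. For Hk2, Pkm and Ldha P7.5 replicate 2 lay between the adult libraries, and for Aldoa it lay above both. Relative to all members the list's median was 1.24 higher as deposited, 1.04 higher under median-ratio scaling and 0.34 higher under upper-quartile scaling.

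Among the 15 higher genes with the largest gaps, Guca1a was the rod gene, and the others have varied roles. Pdrg1, a gene regulated by p53 and DNA damage, was at 0.241 and 7.71 FPKM at P7.5 and 24.7 and 25.6 FPKM in the adult. Fcf1, which helps to process ribosomal RNA, was at 0.701 and 0.362 FPKM at P7.5 and 3.7 and 3.67 FPKM in the adult, with both P7.5 libraries under 1 FPKM. Gpx3, a secreted glutathione peroxidase, was at 0.095 and 6.26 FPKM at P7.5 and 17.4 and 31.7 FPKM in the adult. Fndc5, the precursor of irisin, was at 0 and 4.34 FPKM at P7.5 and 11.7 and 17.7 FPKM in the adult. In these 4 the lower adult library stood above the higher P7.5 library by gaps of 1.56, 1.46, 1.34 and 1.25 on the log2 scale. Ppm1h, a protein phosphatase, was at 37.4 and 62.3 FPKM at P7.5 and 144 and 139.8 FPKM in the adult. Sfxn5, a sideroflexin of the mitochondrial inner membrane, was at 192 and 609 FPKM at P7.5 and 1469 and 1258 FPKM in the adult. Zmynd8, a chromatin reader, was at 16.1 and 101 FPKM at P7.5 and 218 and 207 FPKM in the adult. Ppm1h, Sfxn5 and Zmynd8 were well above 10 FPKM in all 4 libraries, so no listed 0 entered their change, but under upper-quartile scaling the change of Ppm1h and of Sfxn5 turned negative. The adult library without run-off held 33405 reads on Sfxn5, 7024 on Ppm1h and 4190 on Zmynd8, but only 24 on Fcf1 and 1 on Fndc5, beside 83 on Pdrg1 and 172 on Gpx3.

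Membrane traffic and transport were represented by further single genes. Rabgef1, the exchange factor that activates RAB5 on early endosomes, was at 1.39 and 28.5 FPKM at P7.5 and 107 and 60.5 FPKM in the adult. The lysosomal enzyme gene Pld3 was at 0 and 6.83 FPKM at P7.5 and 17.3 and 14.6 FPKM in the adult, and Slc4a7, a sodium bicarbonate cotransporter, was at 0 and 2.38 FPKM at P7.5 and 5.59 and 8.85 FPKM in the adult. In the library without run-off Rabgef1 had 2850 reads, Slc4a7 11 and Pld3 0. Ankra2, Cuedc1 and Fam192a were also among the 15, with log2 changes of 2.69, 2.78 and 2.71 and 24, 162 and 79 reads in that library.

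Of all genes lower in the adult, Pcyox1l, a prenylcysteine oxidase-like gene (ENSMUSG00000024579), had the largest gap, with 167 and 27.2 FPKM at P7.5 and 4.61 and 5.35 FPKM in the adult. Both P7.5 libraries were clearly above both adult libraries, a change of -3.53 ± 1.63 (SE; limma, unadjusted p = 0.03, Benjamini-Hochberg adjusted p = 1.0). It had 177 and 59.7 FPKM at E17.5 and 18.2 and 82.2 FPKM at P0.5. Abcc5, an exporter of cyclic nucleotides, was at 19.6 and 10.1 FPKM at P7.5 and 4.75 and 4.22 FPKM in the adult. Srrm2, a large scaffold protein of splicing speckles, was at 90.7 and 52.8 FPKM at P7.5 and 29.5 and 31.9 FPKM in the adult, and Clasp2, which steadies growing microtubule ends, at 482 and 181 FPKM at P7.5 and 124 and 119.9 FPKM in the adult. None of the 4 P7.5 and adult libraries had Abcc5, Srrm2 or Clasp2 under 1 FPKM, so no listed 0 entered their change. Rraga, the RAG GTPase that brings mTORC1 to the lysosome, was at 294 and 53 FPKM at P7.5 and 0.936 and 31.2 FPKM in the adult, and Polr2i, a subunit of RNA polymerase II, at 4.66 and 1.9 FPKM at P7.5 and 0 and 0.258 FPKM in the adult. Agpat1, an acyltransferase of phospholipid synthesis, was at 199 and 7.36 FPKM at P7.5 and 4.43 and 4.79 FPKM in the adult, and Gal3st3, a sulfotransferase for galactose, at 64.8 and 3.13 FPKM at P7.5 and 1.18 and 1.85 FPKM in the adult. The remaining 6 of the 15, D030056L22Rik, Ggcx, Pced1b, Pddc1, 5430405H02Rik and Cyb5d2, had log2 changes from -2.98 to -1.21, and Khsrp is given below.

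In 3 of the lower genes that encode RNA-binding proteins P7.5 replicate 1 was very high. Khsrp, which binds AU-rich elements, was at 5579 and 163 FPKM at P7.5 and 56.2 and 108 FPKM in the adult. Hnrnpl, a splicing regulator that binds CA repeats, was at 3172 and 34.5 FPKM at P7.5 and 5.14 and 27.4 FPKM in the adult, and the cold-inducible Cirbp was at 2187 and 42 FPKM at P7.5 and 3.31 and 41.9 FPKM in the adult. In all 3, P7.5 replicate 2 was far nearer to the adult libraries than to P7.5 replicate 1. Hnrnpl had the smallest p of all members, with a change of -4.67 ± 1.45 (limma, unadjusted p = 0.0013, Benjamini-Hochberg adjusted p = 1.0). R3hdm4, the most abundant gene of P7.5 replicate 1, was at 38939 and 971 FPKM at P7.5 and 189.6 and 714 FPKM in the adult. Rsl24d1, a factor in the making of the large ribosomal subunit, was at 2712 and 88.4 FPKM at P7.5 and 32.6 and 64.8 FPKM in the adult. Of the RNA-binding and splicing list 38 of 53 genes passed the filter, of which 3 were higher (Elavl1, Msi2 and Ptbp2; 7.89% against 5.32% of all members), 2 were lower (Hnrnpl and Cirbp, 5.26% against 2.29%) and 33 overlapped. Khsrp is not on that list. Msi2, a translational regulator of neural progenitors, was at 5.62 and 5.24 FPKM at P7.5 and 9.51 and 13.8 FPKM in the adult, with a change of 0.96. Its sign turned under upper-quartile scaling, and that of Elavl1 under both scalings.

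Most of the lower genes were also high in E17.5 replicate 1 and P0.5 replicate 2. P7.5 replicate 1 exceeded P7.5 replicate 2 in 75 of the 77 lower genes, a count that the rule itself favours, since it took both P7.5 libraries into the choice. In 54 of the 77 (70.1%), E17.5 replicate 1 and P0.5 replicate 2 were also both above their own partner library, against 8.85% of all members. Of the 179 higher genes this held for 10 (5.59%). The rule favours the count of 54 too, since the differences between partner libraries went together over genes. All members are an unlike base, as P7.5 replicate 1 exceeded P7.5 replicate 2 in only 382 of them (11.3%). R3hdm4 had 8171 and 563 FPKM at E17.5 and 1477 and 8921 FPKM at P0.5, and Agpat1 had 346 and 6.55 FPKM at E17.5 and 35.1 and 455 FPKM at P0.5, which shows the same libraries high at each age. How much of the change from P7.5 to adult follows that difference was not tested.

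**Figure D3:**
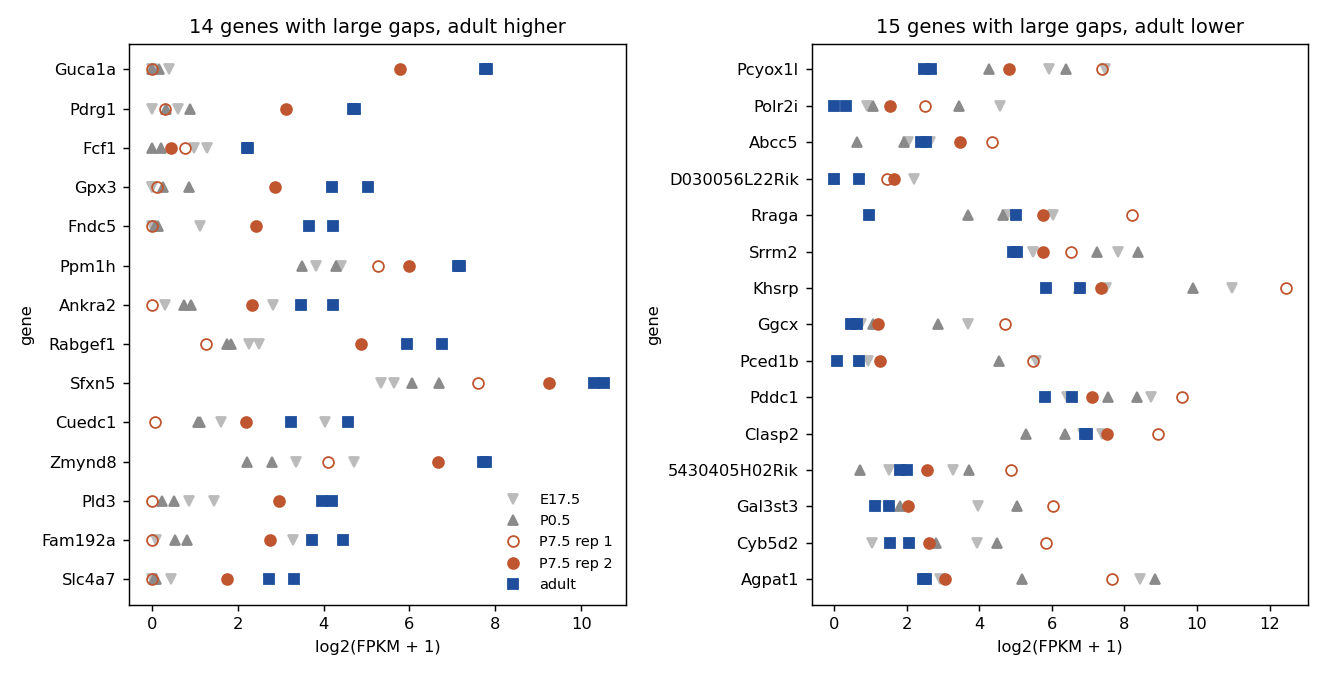
The x axis is log2(FPKM + 1) and each row 1 gene among the 15 with the largest gap in each direction (1 higher gene is not shown), with a symbol for each of the 8 retina libraries. For higher genes P7.5 replicate 2 usually lies between P7.5 replicate 1 and the adult pair, and for lower genes P7.5 replicate 1 and single E17.5 and P0.5 libraries lie far to the right.

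The lists of other retinal cell types had few genes that passed the filter. For cones, bipolar cells, amacrine cells, horizontal cells and ganglion cells 7, 9, 7, 2 and 10 genes passed. All of them overlapped, as did 3111 of the 3367 members, so lists this short cannot tell these cell types from other genes. Opn1sw, the short-wavelength cone opsin, was at 2526 and 84.1 FPKM at P7.5 and 103 and 30.5 FPKM in the adult, high in the P7.5 library that lists most rod genes near 0. Gnb3, a transducin subunit of cones and ON bipolar cells, was at 3.36 and 104 FPKM at P7.5 and 104 and 94.2 FPKM in the adult. The ganglion cell factor gene Pou4f1 was at 106 and 1091 FPKM at P7.5 and 315 and 1274 FPKM in the adult. For Pou4f1 the replicates of a stage lay further apart than the stages. Of 11 Müller glia genes that passed, Apoe and Sox9 were higher (18.2% against 5.32% of all members) and Glul was lower (9.09% against 2.29%). Apoe, which carries lipids, was at 1.89 and 37.5 FPKM at P7.5 and 59 and 42.9 FPKM in the adult. Sox9, a factor of progenitors and Müller glia, was at 144 and 199.7 FPKM at P7.5 and 269 and 246 FPKM in the adult, a change of 0.60 that turned negative under both scalings. Glul, the glutamine synthetase that recycles glutamate in Müller glia, was at 474 and 9.35 FPKM at P7.5 and 7.35 and 1.67 FPKM in the adult. Among 13 progenitor and cell cycle genes that passed, only Ccnd1, cyclin D1, did not overlap (7.69% higher against 5.32% of all members). It was at 21.6 and 16.2 FPKM at P7.5 and 36 and 24.7 FPKM in the adult. Its positive change turned negative under both scalings.

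Markers of tissue outside the neural retina were followed because the methods name eyes as the starting tissue. Of 25 lens genes 22 passed the filter, and 21 of these overlapped. There were 0 higher (against 5.32% of all members) and 1 lower (4.55% against 2.29%). The summed lens level was 651 and 1763 FPKM at P7.5 and 309 and 1689 FPKM in the adult, so it was high in replicate 2 of both stages and did not follow the stage. Mip, the water channel of lens fibres, was at 642 and 4.89 FPKM at P7.5 and 1.45 and 3.78 FPKM in the adult, and accounted for nearly all of the sum in P7.5 replicate 1. Cryaa, alpha A-crystallin, was at 2.4 and 596 FPKM at P7.5 and 84.8 and 548 FPKM in the adult. The defining pigment epithelium gene Rpe65 is not among the members, and of the pigment epithelium and melanocyte list 5 of 21 genes passed, with Ptgds, prostaglandin D synthase, higher at 1.21 and 12.4 FPKM at P7.5 and 26.8 and 15 FPKM in the adult. For cornea, skeletal muscle, erythrocytes, microglia and endothelium 1 gene each passed and overlapped, and for fibroblasts 5 did. The part of lens RNA in the results was not tested.

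Synaptic and membrane genes moved singly and in both directions. In the synaptic vesicle and release list 26 of 47 genes passed, 0 were higher (against 5.32% of all members), 3 were lower (11.5% against 2.29%) and 23 overlapped. Sv2b, a synaptic vesicle glycoprotein, was at 838 and 2.07 FPKM at P7.5 and 1.37 and 0.849 FPKM in the adult, and Cplx2, a complexin that clamps release at conventional synapses, at 730.3 and 39.9 FPKM at P7.5 and 7.6 and 34.3 FPKM in the adult. Syt11 was at 10.5 and 3.02 FPKM at P7.5 and 0 and 2.73 FPKM in the adult. All 10 ribbon synapse genes that passed overlapped. Of the glutamate receptors 4 of 25 passed, and Grin2b, an NMDA receptor subunit, was higher at 0.646 and 5.09 FPKM at P7.5 and 8.14 and 6.68 FPKM in the adult, while Grm3, a metabotropic receptor, was lower at 45.8 and 4.29 FPKM at P7.5 and 1.13 and 3.2 FPKM in the adult. Of 21 GABA and glycine receptor genes 0 passed. Scn2b, a beta subunit of voltage-gated sodium channels, was higher with 13.2 and 303 FPKM at P7.5 and 722 and 469 FPKM in the adult, a change of 3.15 ± 1.48 (limma, unadjusted p = 0.034, Benjamini-Hochberg adjusted p = 1.0) that kept its sign under both scalings. It had 11.5 and 58 FPKM at E17.5 and 34.7 and 14.2 FPKM at P0.5, so the adult libraries exceeded all 6 earlier ones.

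Pumps and transporters gave 3 higher genes among 10 that passed (30% against 5.32% of all members), of which 2 turned sign with the scaling. Slc12a5, the KCC2 potassium chloride cotransporter that makes GABA inhibitory in mature neurons, was at 0 and 3.53 FPKM at P7.5 and 8.57 and 6.52 FPKM in the adult. It was listed at 0 in 3 of the 4 perinatal libraries. Atp1b1, a sodium pump subunit, was at 4.71 and 14.7 FPKM at P7.5 and 15.2 and 15.6 FPKM in the adult, and Atp2b2, a plasma membrane calcium pump, at 81.4 and 104 FPKM at P7.5 and 127 and 120.0 FPKM in the adult. The change of Atp1b1 turned negative under upper-quartile scaling and that of Atp2b2 under both scalings, whereas that of Slc12a5 did not.

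Genes of axon growth and of the cytoskeleton mostly overlapped, as did 3111 of the 3367 members. In the axon growth and neuronal differentiation list 29 of 41 genes passed and 28 overlapped, with a median change of 0.03. Of the 29, 0 were higher (against 5.32% of all members) and 1 was lower (3.45% against 2.29%). Marcks, a substrate of protein kinase C in growth cones, was the lower gene, at 485 and 239 FPKM at P7.5 and 64.2 and 219.6 FPKM in the adult. Marcks had 5918 and 1833 FPKM at E17.5 and 3449 and 3371 FPKM at P0.5, so each P7.5 and adult library was under each perinatal one. Dpysl2, CRMP2 of the growth cone, was at 5329.7 and 2828 FPKM at P7.5 and 1438 and 3145 FPKM in the adult, and adult replicate 2 exceeded P7.5 replicate 2. All 10 tubulins that passed overlapped. Of 10 neurofilament and microtubule-associated genes that passed, Map4 and Map1b were higher (20% against 5.32% of all members). Map4 was at 0.636 and 7.61 FPKM at P7.5 and 13.4 and 17.8 FPKM in the adult. Map1b was at 10.1 and 13.6 FPKM at P7.5 and 21.4 and 18.1 FPKM in the adult. The sign of Map1b turned under both scalings. Of 24 actin and actin-binding genes that passed, Actr2 and Enah were higher (8.33% against 5.32%) and Twf1 was lower (4.17% against 2.29%). Twf1, twinfilin, was at 3656 and 1887 FPKM at P7.5 and 810.0 and 1877 FPKM in the adult, and only 0.01 on the log2 scale parted the stages. Actr2 changed by 0.61, with a negative sign under both scalings. Of 7 adhesion genes that passed, 6 overlapped and Nrxn3, a presynaptic neurexin, was lower (14.3% against 2.29%). Nrxn3 was at 14 and 2.83 FPKM at P7.5 and 0 and 2.76 FPKM in the adult. Of 43 axon guidance genes 2 passed, and both overlapped.

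Genes of the translation machinery were separated at shares near or under those of all members, 5.32% higher and 2.29% lower. The shares higher were 3.45% for large-subunit proteins, 0 for small-subunit proteins and 3.23% for translation factors. Of the large-subunit ribosomal proteins 29 of 47 passed, with Rpl14 higher at 0.167 and 6.14 FPKM at P7.5 and 9.69 and 8.37 FPKM in the adult and Rpl34 lower at 3.9 and 2.5 FPKM at P7.5 and 0 and 1.69 FPKM in the adult. All 23 small-subunit genes that passed overlapped. Rpl22, the gene that carries the tag, was at 0.0645 and 1.12 FPKM at P7.5 and 0 and 1.4 FPKM in the adult, and Pax6, whose regulatory sequence drives the Cre and which amacrine cells keep expressing, was at 0 and 2.5 FPKM at P7.5 and 1.11 and 4.16 FPKM in the adult. Of 31 translation factors that passed Eif4g1, a scaffold of the cap-binding complex, was higher at 1.64 and 9.22 FPKM at P7.5 and 24.2 and 9.92 FPKM in the adult, and its sign turned under upper-quartile scaling. The abundant Eef1a1 was at 3.32 and 369 FPKM at P7.5 and 5.22 and 397 FPKM in the adult, so here the replicates of a stage differed far more than the stages.

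Respiratory genes were separated at shares near that of all members, 3.23% higher for complex I and for complexes III, IV and the ATP synthase against 5.32%. For complex I 31 of 37 genes passed and Ndufs7 alone was higher, at 0 and 10.4 FPKM at P7.5 and 12.3 and 13.1 FPKM in the adult. For complexes III, IV and the ATP synthase 31 of 37 passed and Cox8a alone was higher, at 0.339 and 19.8 FPKM at P7.5 and 22.9 and 24 FPKM in the adult. All 15 genes of the citric acid cycle and creatine kinase list that passed overlapped, Ckb, the brain creatine kinase, with 1.37 and 47.3 FPKM at P7.5 and 94.3 and 43.2 FPKM in the adult. The 13 mitochondrially encoded genes were not analysed here. In 9 of the 31 complex I genes and 10 of the 31 others both adult libraries exceeded P7.5 replicate 1, near the 31.7% of all members.

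The antioxidant list had 3 higher genes among 14 that passed (21.4% against 5.32%), all of them glutathione peroxidases. Beside Gpx3, these were Gpx4, which removes lipid peroxides and is needed by photoreceptors, at 0 and 22.4 FPKM at P7.5 and 27.4 and 35.7 FPKM in the adult, and Gpx1 at 0 and 3.45 FPKM at P7.5 and 5.26 and 4.73 FPKM in the adult. The 3 kept a positive sign under both scalings. Over all lists together 35 of the 587 genes that passed were higher (5.96% against 5.32% of all members) and 12 were lower (2.04% against 2.29%). Sod1, the copper-zinc superoxide dismutase, was listed at 22.7 and 1896 FPKM at P7.5 and 0 and 1739 FPKM in the adult, and the replicates of each stage lay far apart.

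Protein quality control and signalling genes were separated one at a time, beside 5.32% higher and 2.29% lower among all members. Of 31 proteasome and ubiquitin genes that passed Psmd4, the ubiquitin receptor of the proteasome, was higher at 0 and 3.5 FPKM at P7.5 and 4.41 and 3.52 FPKM in the adult, with a gap of 0.01. Of 26 chaperones Dnajb6 was higher at 0 and 1.32 FPKM at P7.5 and 3.71 and 1.71 FPKM in the adult, and of 15 genes of the 14-3-3 and CaM kinase list 1 was higher. Among 23 chromatin genes that passed Hmgb1 was at 49 and 123 FPKM at P7.5 and 131 and 138 FPKM in the adult and Anp32e, a histone chaperone for H2A.Z, at 0.0941 and 5.48 FPKM at P7.5 and 5.87 and 8.21 FPKM in the adult, both higher. In the clock list Per3 was higher at 48.5 and 296 FPKM at P7.5 and 794 and 308 FPKM in the adult, and the immediate early gene Jund at 0.52 and 0.854 FPKM at P7.5 and 1.93 and 1.07 FPKM in the adult. Under upper-quartile scaling the changes of Hmgb1, Per3 and Jund turned negative. All 7 genes of fatty acid and cholesterol synthesis that passed overlapped, and so did all 7 of axon survival and caspases.

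**Figure D4:**
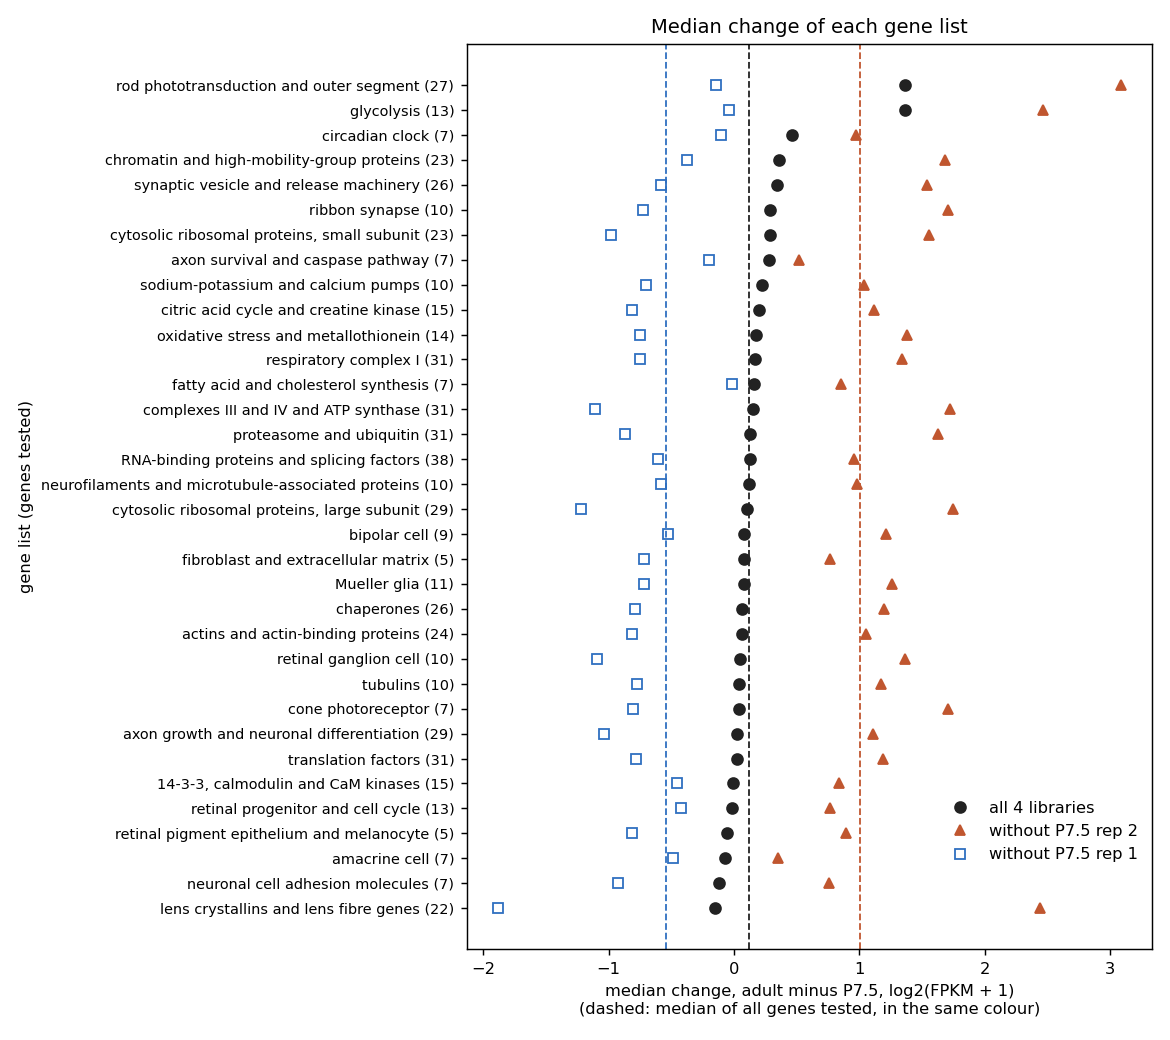
The x axis is the median change of a gene list, adult minus P7.5 in log2(FPKM + 1), with all 4 libraries (circles), without P7.5 replicate 2 (triangles) and without P7.5 replicate 1 (squares), and dashed lines give the medians of all members, 0.12, 1.0 and -0.54. Rod and glycolysis genes lie to the right of the dashed line in each setting. The chromatin and high-mobility-group list does so too, but less far, at 0.36, 1.69 and -0.37. Lens genes range from -1.88 to 2.44.

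With P7.5 replicate 2 left out, limma called 11 genes higher (0.327%) and 24 lower (0.713%) at a Benjamini-Hochberg adjusted p under 0.05. In that fit the lone P7.5 library is assumed to vary as the other stages do. Of the 11 higher genes 5 are rod genes, and they were Guca1a with a change of 7.79 ± 1.90 (SE, limma adjusted p = 0.008), Pde6g, Rom1, Tulp1 and Gnat1. Hk2 changed by 7.74 ± 1.71 (limma adjusted p = 0.0029) and Pkm by 6.11 ± 1.75 (limma adjusted p = 0.046). The others included Cryaa, Rps9 and Rn45s, the ribosomal RNA precursor. All the higher genes of that fit were at 0 to 2.4 FPKM in P7.5 replicate 1 and at 54 to 596 FPKM in P7.5 replicate 2. Measured from P7.5 replicate 2, the positive changes of the named genes ran only from 0.20 for Pkm to 2.01 for Guca1a. Against P7.5 replicate 2 alone, 8 of the 11 also had a positive change, and 3, among them Cryaa and Rps9, had a negative one.

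The 24 lower genes of that fit were at 194 to 38939 FPKM in P7.5 replicate 1 and at 0.846 to 971 FPKM in P7.5 replicate 2. The mitochondrial channel gene Vdac1 was at 1366 and 9.88 FPKM at P7.5 and 0.18 and 10.3 FPKM in the adult, and Camk2d, a CaM kinase subunit, at 1205 and 2.96 FPKM at P7.5 and 10.1 and 2.49 FPKM in the adult. Wtap, of the complex that methylates adenosine in mRNA, was at 3457 and 23.8 FPKM at P7.5 and 102 and 54.7 FPKM in the adult, and Alyref, an mRNA export adaptor, at 425 and 1.21 FPKM at P7.5 and 0.305 and 0.94 FPKM in the adult. Beside these 4 the lower genes were Ccnc, Cdk14, Cirbp, Ewsr1, Gadd45a, Glul, Hnrnpa1, Hnrnpl, Khdrbs3, Khsrp, Midn, Mip, R3hdm4, Rsl24d1, Skp1a, Spock1, Sv2b, Tmem167b, Tsen34 and Zfand6. In 20 of all the lower genes of that fit, E17.5 replicate 1 and P0.5 replicate 2 were both above their partner library, against 8.85% of all members. Their high values in P7.5 replicate 1 favour that count too. Against P7.5 replicate 2 alone, 3 of the 24 had a positive change, Wtap, Camk2d and Hnrnpa1.

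Samples that the rule did not use were also read for the members. In the adult library without run-off, 171 of the 179 higher genes had a read (95.5%), with a median of 359 reads, against 72 of the 77 lower genes (93.5%) with a median of 35 reads, and 91.3% of all members with 68. Ranked by reads per kilobase among the members, the higher genes stood at a median percentile of 77.8 and the lower genes at 34.8. The rule itself favours these ranks, since it took the higher genes for high values in both adult libraries. Their medians there were 20.4 and 17.8 FPKM, against 0 and 3.64 FPKM for all members. A rank in a further adult library does not bear on the change from P7.5. At E17.5 the median of log2(FPKM + 1) was 2.56 for higher genes, 3.51 for lower genes and 1.60 for all members, and at P0.5 it was 1.67, 3.32 and 0.84. The median transcript length was 2616 bases for the higher genes and 2043 for the lower genes, beside 1704 for all members.

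In Cre-positive SC the tagged ribosomes sit in retinal axons, but the study names unspecific binding of mRNA from SC cells as a major caveat. The same interval was read in Cre-positive SC by the same rule in 4 other libraries. Cre-negative SC was not set against them, so the counts cover all RNA of the pull-down and not axonal mRNA alone. There 190 of 1566 genes were higher in both adult libraries (12.1%) and 340 were lower (21.7%). Of the 119 retinal higher genes tested there, 17 were higher (14.3%) and 22 lower (18.5%). Of the 68 retinal lower genes tested there, 7 were higher (10.3%) and 3 lower (4.41%).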

How the data were processed

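Immunopurified mRNA was reverse-transcribed, amplified by PCR and sequenced. Reads had been mapped to mm10 with TopHat2 2.0.12, and the authors deposited 1 FPKM value a gene and library, computed by Cufflinks 2.2.1. The read counts that the authors deposited for the adult library without run-off came from HTSeq 0.6.1p1. Use of strand is not given in the sources used here. Depths were inferred from the step between low FPKM values, which for adult replicate 1 rests on few genes, and they bear on counting error only.

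Genes at 1 FPKM or more in 2 or more of the 4 libraries were kept, with a pseudocount of 1. The test was limma 3.58.1 (R 4.3.3, trend and robust moderation) over the 8 retina libraries with stage as a factor, two-sided, with Benjamini-Hochberg adjustment over 3367 genes and a threshold of 0.05, and was tested on simulated data. Positions and transcript lengths came from GENCODE M21 (GRCm38, the same build as mm10). Named genes were the 15 largest gaps in each direction (the lowest value of the higher stage minus the highest of the lower one), for each of 50 lists up to 6 largest gaps and 4 highest means, the 10 smallest p-values, Rpl22 and Pax6. Genes called without P7.5 replicate 2, and some rod genes, were named after their values were seen. A few genes that these rules pick are not reported here. The members and lists were chosen with earlier results of these data known. Alternatives were scaling, pseudocount, filter, fit and leaving out each library. Python 3.11.15 with numpy 2.4.6, pandas 2.3.3 and matplotlib 3.10.9 was used.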

Additional observations from a re-analysis of the deposited data

Results flagged for a closer look

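Gnb1, the beta subunit of rod transducin, had 1427132 reads in the adult retina library without run-off, 30.5% of its reads on genes, and 56840 reads (18.0%) in the library with run-off. It was looked at again because it is listed at 0 FPKM in both adult and both P7.5 libraries of the comparison, so a transcript that took the largest share of reads in the count library gave no value. It was listed at 16210.4 and 31028 FPKM at E17.5 and 45000.4 and 0 FPKM at P0.5. Groups of 2 libraries are too small for a check of single libraries that stand apart.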

How the results depend on the processing

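Each stage has 2 libraries, and the depth of each is only an estimate, so both limit precision. For limma, 0 higher and 0 lower genes were called under either scaling, either pseudocount, either filter, the fit over the 4 libraries alone (smallest adjusted p = 0.23) and moderation without trend. Same-numbered libraries of different ages cannot be the same eyes, and the differences between replicates 1 and 2 at P7.5 and in the adult correlated at 0.08 over genes. With the replicate number as a block limma again called 0 higher and 0 lower genes, with 19 and 32 at an unadjusted p under 0.05. When each library was left out in turn limma called 0 to 11 higher and 0 to 24 lower genes. The upper ends came without P7.5 replicate 2, and without adult replicate 2 there were 3 lower genes, Sod1, Peg12 and Inpp5f.

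The genes higher in all pairs numbered 179 with either pseudocount, 210 under median-ratio scaling (135 of them among the 179), 211 with no filter, 138 with a mean of at least 5 FPKM, and 0 under upper-quartile scaling. The genes lower in all pairs numbered 77 with either pseudocount, 75 with a mean of at least 5 FPKM, 47 under median-ratio scaling, 356 under upper-quartile scaling and 314 with no filter. Of the calls, 69.9% were higher as deposited, 81.7% under median-ratio scaling and 40.2% with no filter. Leaving out a library in turn gave 229 to 1798 higher and 210 to 1149 lower genes by construction, since fewer pairs have to be ordered: 229 and 692 without P7.5 replicate 1, 1067 and 304 without P7.5 replicate 2, 1798 and 210 without adult replicate 1, and 829 and 1149 without adult replicate 2.

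Of all genes named, overlapping ones included, 20 of 217 changed sign under median-ratio scaling and 59 of 234 under upper-quartile scaling. Among those without overlap, changes that turned negative under median-ratio scaling were those of Actr2 (-0.17), Atp2b2 (-0.35), Ccnd1 (-0.12), Elavl1 (-0.21), Map1b (-0.048) and Sox9 (-0.18). Under upper-quartile scaling these were Actr2 (-1.60), Atp1b1 (-1.12), Atp2b2 (-1.75), Ccnd1 (-1.44), Eif4g1 (-0.18), Elavl1 (-1.12), Grin2b (-0.085), Hmgb1 (-1.39), Jund (-0.45), Map1b (-1.31), Msi2 (-0.86), Per3 (-0.16), Ppm1h (-0.63), Ptbp2 (-0.065), Sfxn5 (-0.21) and Sox9 (-1.59). The cause was not tested. Of 34 list medians 28 changed sign without P7.5 replicate 1, 25 without adult replicate 2, 24 under upper-quartile scaling and 10 under median-ratio scaling.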
